A study of Mus musculus with 2 samples.

Results

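The opioid peptides and receptors are 8 genes, taken by name from the 32183 genes of the count tables. Penk, Pomc, Pdyn and Pnoc code for the peptide precursors, and Oprd1, Oprm1, Oprk1 and Oprl1 code for the receptors. Their counts were read in 2 single-cell libraries of mouse celiac and superior mesenteric ganglia, called library 1 and library 2. The series used 20 animals of 7 to 8 weeks of age, with both sexes in equal number. The labels name no strain, genotype or treatment and do not tie animals to libraries, so the spread between the libraries may be technical. No treated and control groups exist, and the comparisons below are between cell populations of the same libraries.

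Opioid peptides are cut from long precursors by prohormone convertases. Enkephalins come from Penk, beta-endorphin and the melanocortins from Pomc, dynorphins from Pdyn and nociceptin from Pnoc. The receptors couple to inhibitory G proteins, which close N-type and P/Q-type calcium channels and open inwardly rectifying potassium channels. In prevertebral sympathetic ganglia, enkephalins are known to reduce transmission from preganglionic terminals.

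Penk gave most of the precursor UMIs in these ganglia, so its peptide-coding sites are shown. The coding sequence of Penk-201, taken from the GENCODE transcripts on GRCm38, has 807 bases and holds 7 in-frame copies of the codons of the opioid core. Each line gives 1 copy with its flanks, on the transcript's strand, and the capitals mark the 12 bases of the core.
Penk copy 1: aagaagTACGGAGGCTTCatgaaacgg
Penk copy 2: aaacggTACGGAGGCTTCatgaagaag
Penk copy 3: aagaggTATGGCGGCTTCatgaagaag
Penk copy 4: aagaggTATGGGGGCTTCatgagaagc
Penk copy 5: aagcgcTACGGGGGCTTCatgagaagg
Penk copy 6: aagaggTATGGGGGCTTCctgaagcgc
Penk copy 7: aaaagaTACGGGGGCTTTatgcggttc
A pair of codons for basic amino acids, the kind of site at which convertases cut, stands before every copy. The codon after the core is atg in the Met-enkephalin copies and ctg in copy 6, the Leu-enkephalin copy. The same search found 3 core copies in the 747 coding bases of Pdyn, 1 in the 708 of Pomc and 0 in the 639 of Pnoc, whose peptide begins with another core.

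After doublets were removed, 12033 and 11654 cells were kept from the libraries, which held 94521010 and 95235439 unique molecular identifiers (UMIs, counts of captured RNA molecules) with medians of 6483 and 6498 a barcode. The libraries shared 64 barcodes. Populations were named from marker genes, without the 8 members, and a name means that a cluster resembles that cell type. Noradrenergic neurons fell into a Shox2-rich population of 36 and 40 cells and an Rxfp1-rich population of 67 and 62 cells. All 12 neuron markers, Th and Dbh among them, were present in both. Levels are given as CPM, the UMIs of a gene scaled to a common total per population, and the markers' summed level was 22700 and 22200 CPM in the Shox2-rich neurons and 21600 and 22400 CPM in the Rxfp1-rich neurons. Neuron-like subclusters that were led by markers of other cells, or that neither gene set apart, are called other neuron-like cells (122 and 86) where their median UMI count was high. A further 645 and 640 droplets carried neuron markers at 17700 and 18800 CPM but had medians of only 1941 and 2013.5 UMIs, and are called low-UMI neuronal droplets. Of these 1285 droplets, 846 (65.8%) fell in subclusters led by markers of other cells: 720 in N0 (mast cell markers), 108 in N3 (satellite glia) and 18 in N9 (fibroblast). Led refers to the 50 genes that set a subcluster most apart from the other neuron-like cells. Neuron markers numbered 0 among them in every subcluster, and N0 held 2 mast cell markers. The largest droplet subcluster was led by fibroblast markers with another random seed and by erythroid markers with doublets kept. Blood endothelial cells, at 981 and 894 cells, served as the measure of free RNA, the transcripts that droplets take up from broken cells, and neuron markers summed to 1700 and 1670 CPM there.

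Levels are over all UMIs of a population in 1 library, and the 95% intervals cover counting error only. Comparisons used UMIs drawn at random with a probability of 0.5 (the testing UMIs), which took no part in clustering, summed per population and library, with edgeR's quasi-likelihood test, the library as a block and Benjamini-Hochberg adjustment over all genes tested. The plot of the 5 countable members by population shows the 3 patterns described next: Penk in fibroblasts, the receptors in neurons, and Oprm1 also in immune cells.

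**Figure D1:**
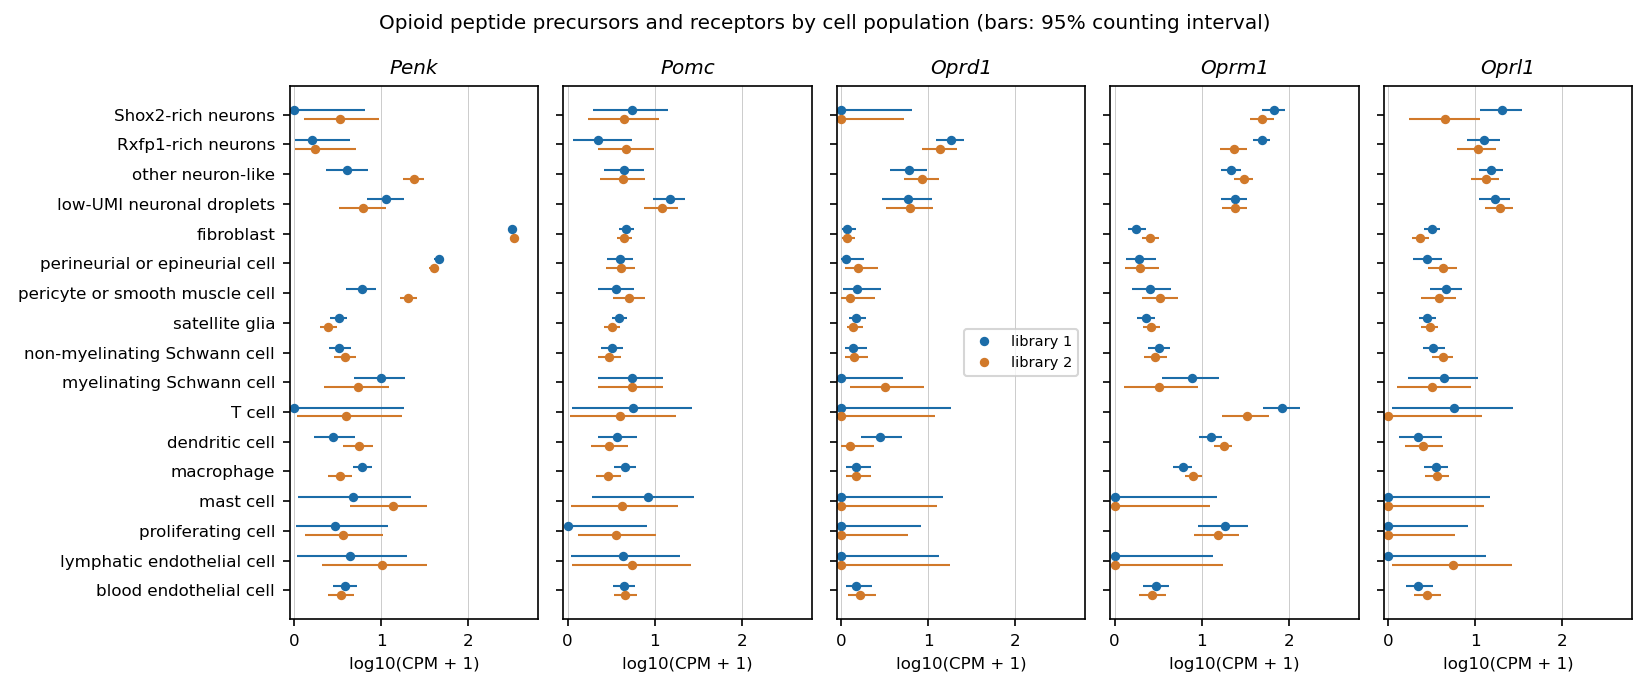
Level of Penk, Pomc, Oprd1, Oprm1 and Oprl1 as log10(CPM + 1) in 17 named populations, 1 point per library with its 95% counting interval. Penk stands at 320 and 332 CPM in fibroblasts, Oprd1 is highest in Rxfp1-rich neurons, and Oprm1 is high in neurons and T cells.

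Fibroblasts, not neurons, held the enkephalin precursor transcript. Penk (chr4:4133531-4138819, minus strand) stood at 320 and 332 CPM in fibroblasts, against 2.82 and 2.44 CPM in blood endothelial cells. Of 13279 Penk UMIs in all cells, 92.7% lay in fibroblasts and 3.8% in perineurial or epineurial cells. In the testing UMIs, Penk was 325 and 329 CPM in fibroblasts and 8.08 and 7.23 CPM in the other non-neuronal cells. The log2 fold change was 5.67 ± 0.0666 (SE), with an adjusted p of 6e-26 by edgeR. Of the 4 members tested in this comparison 2 were higher and 1 was lower, where 66.1% of all 17369 genes passed the test, 32.3% higher and 33.8% lower, so the count of members is no result of its own.

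A Penk UMI was found in 63.2% and 61.7% of the 2278 and 2302 fibroblasts. With every cell thinned to 1500 UMIs, the share was 29.9% (95% exact interval 28.1 to 31.9) and 28.7% (26.9 to 30.6) of fibroblasts, against 0.714% and 0.224% of blood endothelial cells. The median depths were 7959 and 8393 UMIs in fibroblasts and 6995 and 6986.5 UMIs in blood endothelial cells. The fibroblast share therefore stood far above the free-RNA share in both libraries.

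Penk was uneven among the 5 fibroblast clusters, which had been formed without it. Cluster 9, led by C7 and C3 (complement components), Dpt, Inmt, Cxcl13 and Pi16, held Penk at 979 and 1060 CPM. It made up 18.6% and 19% of the fibroblasts and held 53.9% and 55.0% of their Penk UMIs. Cluster 4, led by Dlk1, Apod and Smoc2, stood at 213 and 217 CPM, so that cluster 9 was 4.59 and 4.88 times as high. Cluster 6, led by Cxcl1, Spp1 and Ccl11, had 169 and 161 CPM. The small cluster 22, led by the interferon-induced genes Ifit3, Rsad2 and Isg15 together with Plac8, had 134 and 201 CPM. Cluster 17, led by Egfros, Fat3 and A630012P03Rik with Bmper and Pdgfra further down, was lowest with 54.6 and 60.2 CPM. Cluster 9 stood 17.9 and 17.6 times above it. Cluster 17 also had a lower depth, with a median of 3425.5 UMIs over both libraries, against 6857 in cluster 9. The part of depth in the difference was not tested. Cluster 9 was above every other fibroblast cluster in both libraries, while clusters 6 and 22 overlapped. No test was made between clusters, since they were singled out after their values were seen.

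**Figure D2:**
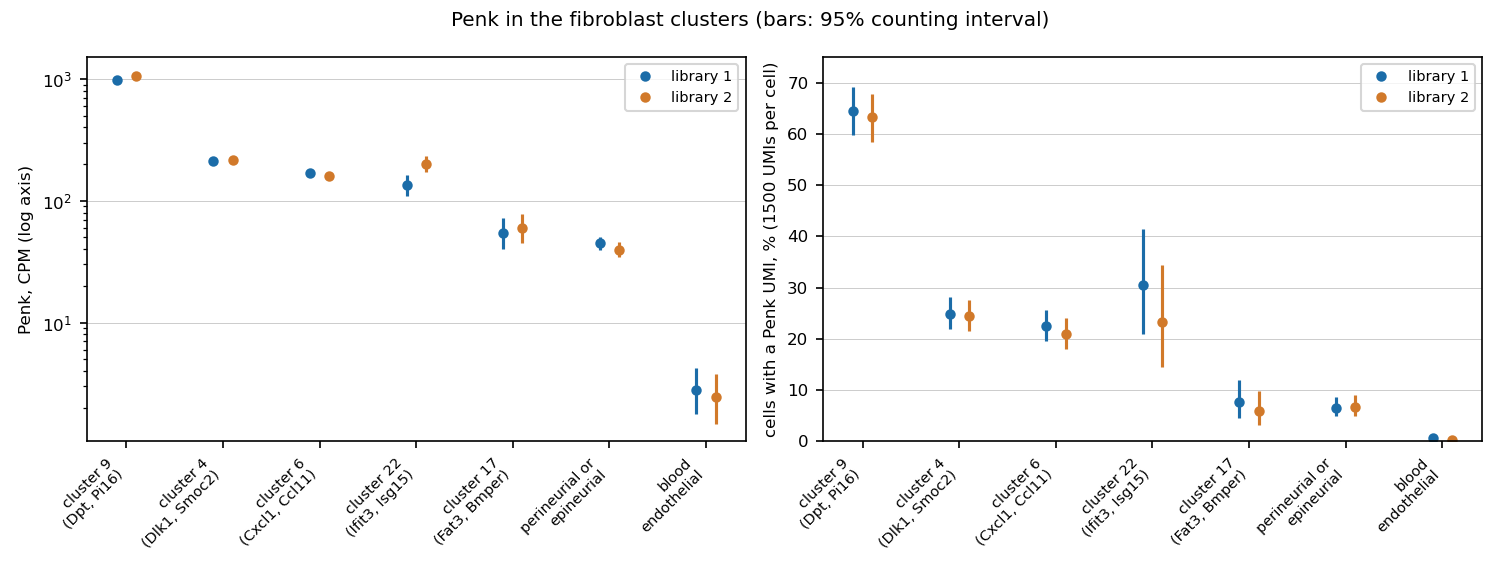
Penk in the 5 fibroblast clusters, perineurial or epineurial cells and blood endothelial cells, as CPM on a log axis and as the percent of cells with a Penk UMI after thinning to 1500 UMIs, 1 point per library with 95% intervals. Cluster 9 is highest at 979 and 1060 CPM and 64.5% and 63.2% of cells.

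Within cluster 9 the transcript was widely shared among cells. The median cell held 5 Penk UMIs in each library, and the highest held 49 and 89. The 10% of cells with the most Penk held 34.0% and 38.6% of the cluster's Penk UMIs.

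The next population in the order of Penk levels was perineurial or epineurial cells, the sheath cells of nerves and ganglia, at 44.7 and 39.8 CPM. Their share of cells with Penk was 6.58% and 6.79% after thinning, again above the blood endothelial share. Pericytes or smooth muscle cells had 4.95 and 19.5 CPM, and cluster 13 of that class, led by Kcnj8, Abcc9 and Rgs5, had 12.2 and 46.3 CPM. There 4 and 7 cells held a Penk UMI, and 1 cell held 13 UMIs in library 1 and 1 cell held 29 in library 2. This level rests on single cells and overlaps with that of several other classes. In separate fits of 9 other non-neuronal classes against the remaining non-neuronal cells, Penk was lower in 9 of 9, with log2 fold changes of -5.82 to -0.81, the fibroblasts being among the cells compared with. The share of all genes called lower in these fits was 7.15% for mast cells, 12.7% for myelinating Schwann cells, 26.1% for pericytes or smooth muscle cells, 28.1% for perineurial or epineurial cells, 30.3% for dendritic cells, 31.9% for non-myelinating Schwann cells, 32.1% for blood endothelial cells, 34.5% for macrophages and 37% for satellite glia.

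In the neurons Penk was at the free-RNA level or under it. Shox2-rich neurons held 0 and 2 Penk UMIs, and 2.32 CPM in library 2. Rxfp1-rich neurons held 1 Penk UMI in each library, or 0.612 and 0.744 CPM. Both populations lie within or below the counting interval of blood endothelial cells. Together the neurons had 0.87 and 0.907 CPM of the testing UMIs, against 80.2 and 85.8 CPM in non-neuronal cells, a log2 fold change of -6.75 ± 0.345 (SE) with an adjusted p of 6.22e-12 by edgeR. The low-UMI neuronal droplets had 10.4 and 5.21 CPM, from 15 and 8 UMIs. They were also lower than non-neuronal cells, with a log2 fold change of -3.80 ± 0.289 (SE) and an adjusted p of 2.32e-14 by edgeR. Without the droplet subclusters led by markers of other cells it was -5.91. Fibroblasts, which held most Penk, were among the non-neuronal cells in both comparisons, which favours a lower call. The other non-neuronal cells had 8.08 and 7.23 CPM of the testing UMIs, where the droplets had 8.33 and 3.91 CPM. Over all UMIs the droplets stood above blood endothelial cells, at 2.82 and 2.44 CPM, with separate counting intervals in library 1 only. Of the droplets' 23 Penk UMIs, 17 lay in subcluster N0 and 3 in N9, both among those subclusters, and 0 in the 996153 UMIs of N1. Their fibroblast markers, all 8 with a UMI, summed to 1550 and 1570 CPM, against 537 and 495 CPM in blood endothelial cells; the part of these in the Penk level was not tested. A stretch of 499 bases at the 5′ end of Penk is shared with A830012C17Rik on the other strand. Of these bases 233 are exonic in both genes, and how counting treated the strand is a point not given in the sources used here.

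Pomc (chr12:3954951-3960642, plus strand) was close to uniform. It stood at 3.73 and 3.49 CPM in fibroblasts, against 3.44 and 3.60 CPM in blood endothelial cells. Outside the low-UMI droplets the named populations ranged from 0 CPM in proliferating cells of library 1 to 7.47 CPM in mast cells of library 1, the mast cell value coming from 2 UMIs. Fibroblasts gave a log2 fold change of 0.73 ± 0.22 (SE) against the other non-neuronal cells, with an adjusted p of 0.00563 by edgeR that became 0.297 with DESeq2, and 0 of 9 other classes passed. In the neurons Pomc had -0.20 ± 0.62 (SE, log2) against non-neuronal cells, with an adjusted p of 0.786 by edgeR.

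Low-UMI neuronal droplets held more Pomc, 13.9 and 11.1 CPM from 20 and 17 UMIs. Against non-neuronal cells, with 18.1 and 10.4 CPM in the droplets and 3.37 and 2.81 CPM in non-neuronal cells of the testing UMIs, the log2 fold change was 2.17 ± 0.465 (SE) with an adjusted p of 0.000132 by edgeR. The level differed among the droplet subclusters. Subcluster N1, led by the proteasome genes Psmb5 and Psmb6 and by Gapdh, had 28.1 and 22.5 CPM from 13 and 12 UMIs. Subcluster N0, led by Cdk8 and Cmss1 and by the mast cell marker Mcpt4, had 8.19 and 2.79 CPM. Malat1, a nuclear RNA, was low in the droplets at 7950 and 10100 CPM, against 52600 to 82200 CPM in Shox2-rich and Rxfp1-rich neurons; its part in the Pomc difference was not tested.

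Dynorphin and nociceptin precursor transcripts were nearly absent from the counts. Pdyn had 2 UMIs in all, 1 in a macrophage and 1 in a satellite glial cell. Pnoc had 11 UMIs, at most 2 of them in any population. Neither passed the filter on low counts in the main fits. Without the filter neither was called; between neurons and non-neuronal cells the adjusted p was 0.905 for Pdyn and 0.695 for Pnoc by edgeR. With so few UMIs a low expression was not detectable at this depth.

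Oprd1, Oprm1 and Oprl1 were higher per UMI in neurons than in non-neuronal cells, although the non-neuronal cells, being many more, held much of the total. Neurons, other neuron-like cells and low-UMI droplets together held 56.7% of the Oprd1 UMIs, 44.5% of the Oprm1 UMIs and 31.8% of the Oprl1 UMIs. Of the 5 members tested between neurons and non-neuronal cells 3 were higher (Oprd1, Oprm1 and Oprl1) and 1 was lower (Penk), where 66.1% of all 17975 genes passed the test, 28.3% higher and 37.9% lower. The 5 members tested between low-UMI droplets and non-neuronal cells gave 4 higher (the same 3 receptors and Pomc) and 1 lower, where 52.3% of 17307 genes passed, 22.8% higher and 29.5% lower. These shares of all genes are high, so the counts alone do not set the members apart. Oprd1 passed the filter on low counts only through the neurons or the droplets, where it was high, so its place in both counts was favoured by the filter. Without the filter its adjusted p was 1.56e-10 in neurons and 0.00475 in droplets by edgeR.

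Oprd1, the delta receptor and a main receptor of enkephalins (chr4:132110726-132144486, minus strand), separated the neuron populations. Shox2-rich neurons held 0 Oprd1 UMIs among 1527527 UMIs of both libraries together. Rxfp1-rich neurons held 28 and 17 Oprd1 UMIs, a level of 17.1 and 12.6 CPM. Blood endothelial cells had 0.491 and 0.643 CPM. Against the floor of 3 counts over both libraries, 1.96 CPM, Oprd1 was at least 7.7-fold lower in Shox2-rich neurons than the 15.1 CPM of Rxfp1-rich neurons. The Shox2-rich to Rxfp1-rich difference was not tested in the main fit, because so few UMIs did not pass the filter on low counts. With all UMIs its adjusted p was 0.000652 by edgeR, without the filter 0.00192, and in a single fit over all named populations 0.00687. The fit with all UMIs and the single fit over all named populations let Oprd1 past the filter only through the Rxfp1-rich neurons. It was high there, which favours a difference in both fits. The fit with all UMIs also included the UMIs used for clustering. Fitted fold changes against a population at 0 are no bound and are not given.

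Of 157 Oprd1 UMIs, 28.7% lay in Rxfp1-rich neurons and 18.5% in the other neuron-like cells. The other neuron-like cells, with 5.0 and 7.51 CPM, and the low-UMI droplets, with 4.86 and 5.21 CPM, overlapped, and both lay below the Rxfp1-rich neurons. Every other named population was at or below 2.21 CPM. In the testing UMIs neurons had 13.1 and 7.26 CPM and non-neuronal cells 0.449 and 0.401 CPM, a log2 fold change of 4.34 ± 0.499 (SE) with an adjusted p of 4.8e-07 by edgeR. The droplets had a log2 fold change of 3.62 ± 0.912 (SE) with an adjusted p of 0.000916 by edgeR. Oprd1 was uneven among the droplets, with 6.83 and 11.2 CPM in N0, which held 13 of their 15 Oprd1 UMIs, and 0 UMIs in N1, where 3 counts would be 3.01 CPM. In the clustering UMIs N0 leaned to Shox2, at 114.75 and 145.13 CPM, over Rxfp1, at 62.84 and 36.28 CPM. Between the 2 named neuron populations the Oprd1 UMIs thus lay in the Rxfp1-rich one and not in the Shox2-rich one. The droplet subclusters did not follow this split.

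**Figure D3:**
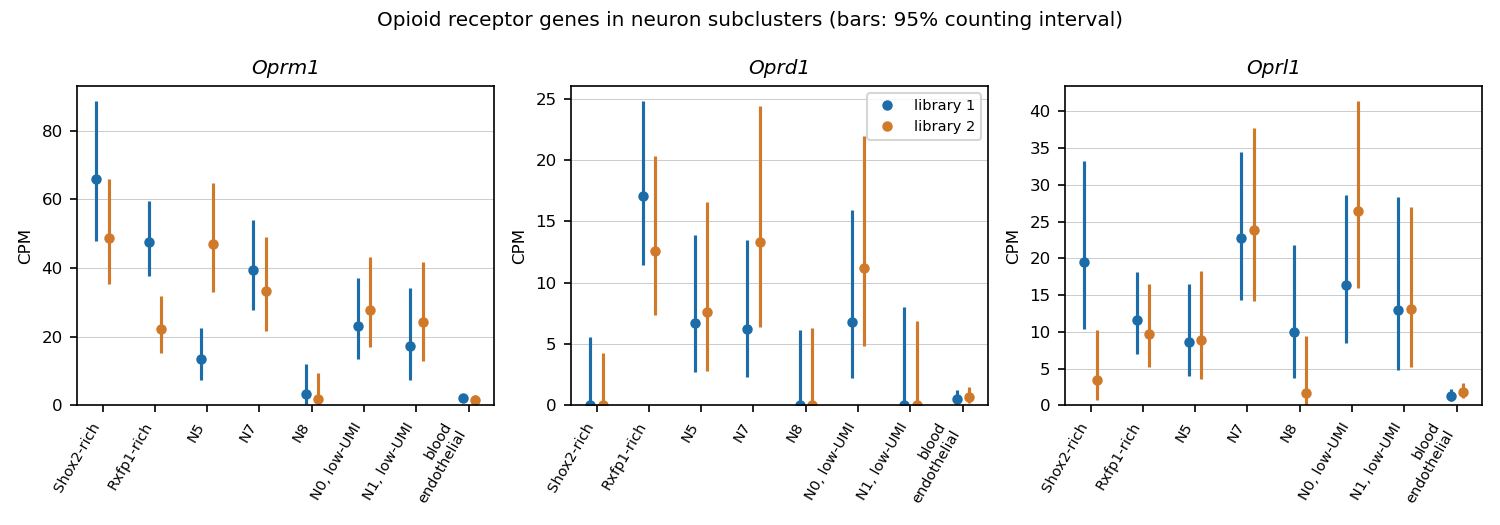
Oprm1, Oprd1 and Oprl1 as CPM in Shox2-rich and Rxfp1-rich neurons, other neuron-like subclusters (N5, N7, N8), low-UMI droplet subclusters (N0, N1) and blood endothelial cells, 1 point per library with 95% counting intervals. Oprd1 is at 0 in both libraries of Shox2-rich neurons and at 17.1 and 12.6 CPM in Rxfp1-rich neurons, whereas Oprm1 is present in both.

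Oprm1, the mu receptor, at which beta-endorphin and morphine act (chr10:6758506-7038198, plus strand), was present in both neuron populations. Shox2-rich neurons had 66.0 and 48.8 CPM. Rxfp1-rich neurons had 47.7 and 22.3 CPM, so that the lowest Shox2-rich value stood just above the highest Rxfp1-rich one. Neurons had 46.1 and 31.7 CPM of the testing UMIs, against 2.72 and 3.41 CPM in non-neuronal cells, a log2 fold change of 3.46 ± 0.29 (SE) with an adjusted p of 6.92e-09 by edgeR. The droplets, at 22.9 and 22.8 CPM, gave 2.87 ± 0.389 (SE) with an adjusted p of 5.03e-08 by edgeR. Both neuronal populations thus exceeded the non-neuronal cells by more than the spread between libraries.

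Between the neuron populations Oprm1, the only member tested, passed in Shox2-rich over Rxfp1-rich neurons at 1.04 ± 0.339 (SE, log2 fold change), with an adjusted p of 0.0221 by edgeR, where 12.3% of 7830 genes passed, 5.26% higher and 7.08% lower. Oprm1 passed the filter on low counts only through the Shox2-rich neurons, where it was high, which favours a difference, and the call held in 1 of 9 alternatives. Another random seed changed both the split of the UMIs and the clusters. With it the log2 fold change was 0.21 with an adjusted p of 0.809, and with all UMIs it was 0.69 with an adjusted p of 0.0925, both by edgeR. Without the library as a block it was 0.97, with an adjusted p of 0.125 by edgeR. Between the low-UMI droplets and the neurons, Oprm1 was lower in the droplets with -0.77 ± 0.301 (SE) and an adjusted p of 0.0151 by edgeR, 1 of 2 members tested where 73.4% of 10306 genes passed, 36% higher and 37.4% lower. That call was lost with DESeq2, at an adjusted p of 0.314, with another random seed, at 0.0546, and without the droplet subclusters led by markers of other cells, at 0.286.

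Oprm1 and Oprd1 UMIs lay partly in the same cells of the Rxfp1-rich population. In library 1, 27 cells had an Oprm1 UMI only, 9 an Oprd1 UMI only, 6 both and 25 neither. In library 2 the numbers were 10, 5, 7 and 40. Of the Shox2-rich neurons 19 and 15 had an Oprm1 UMI and 17 and 25 had neither. At a few UMIs per cell these counts miss cells that hold the transcript, and they are given as a description.

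Immune cells also gave Oprm1 counts. T cells, of which there were 48 and 57, had 83.3 and 32.5 CPM from 18 UMIs in 11 cells and 11 UMIs in 8 cells. Dendritic cells had 11.8 and 16.8 CPM, of which cluster 19, led by Xcr1, Wdfy4 and Clec9a, had 17.5 and 24.9 CPM and cluster 20, led by Cd209a, had 4.77 and 6.73 CPM. Macrophages had 5.08 and 7.02 CPM and proliferating cells 17.5 and 14.4 CPM, against 1.97 and 1.67 CPM in blood endothelial cells. All of these lay above the blood endothelial level in both libraries. Dendritic cells were higher than the other non-neuronal cells by 2.89 ± 0.353 (SE, log2) with an adjusted p of 1.27e-15 by edgeR, a fit in which 25.5% of genes were higher. Macrophages were higher by 1.66 ± 0.291 (SE, log2) with an adjusted p of 3.81e-08 by edgeR, where 29.8% of genes were higher. T cells had fewer than 50 cells in library 1 and were not tested.

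In glia and stroma the mu receptor transcript was low. Satellite glia were lower than the other non-neuronal cells by a log2 fold change of -1.21 ± 0.275 (SE), with an adjusted p of 2.2e-05 by edgeR that became 0.144 with DESeq2. Fibroblasts had 0.768 and 1.54 CPM and a log2 fold change of -1.19 ± 0.3 (SE), with an adjusted p of 0.00133 by edgeR that became 0.136 with DESeq2. Perineurial or epineurial cells gave -1.58 ± 0.522 (SE), with an adjusted p of 0.00958 by edgeR that became 0.271 with DESeq2. Non-myelinating Schwann cells gave -0.95 ± 0.361 (SE) with an adjusted p of 0.0158 by edgeR, a call that was lost in 4 of 8 alternatives. Oprm1 passed in 2 classes upward and 3 downward of the 9 classes beside fibroblasts. Mast cells and lymphatic endothelial cells held 0 Oprm1 UMIs.

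By mean over the libraries, the order of Oprm1 was T cells with 57.9 ± 35.9 CPM, Shox2-rich neurons with 57.4 ± 12.2, Rxfp1-rich neurons with 35.0 ± 18.0, other neuron-like cells with 25.2 ± 6.24, low-UMI droplets with 22.8 ± 0.0948, proliferating cells with 15.9 ± 2.19, dendritic cells with 14.3 ± 3.5 and macrophages with 6.05 ± 1.37 CPM (SD, n = 2 libraries each). Neighbours overlapped between the libraries, except Shox2-rich over Rxfp1-rich neurons, low-UMI droplets over proliferating cells and dendritic cells over macrophages.

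The immune classes with Oprm1 counts also held counts of a gene on the other strand. Ipcef1, a partner of cytohesin exchange factors, overlaps Oprm1 over 152403 bases, of which 96 are exonic in both genes. Ipcef1 stood at 176 and 165 CPM in T cells, 84.7 and 88.5 CPM in dendritic cells and 21.5 and 35.4 CPM in macrophages, against 0.246 and 0.129 CPM in blood endothelial cells. In neurons it was low, at 6.0 and 3.48 CPM in Shox2-rich and 3.06 and 1.49 CPM in Rxfp1-rich neurons, and the low-UMI droplets held none. The 2 genes did not move together between the libraries in T cells, where Oprm1 stood at 83.3 and 32.5 CPM. For each Oprm1 UMI there were 2.11 and 5.09 Ipcef1 UMIs in T cells, 7.15 and 5.27 in dendritic cells, 4.23 and 5.05 in macrophages and 7.33 and 4.0 in proliferating cells. The ratio was 0.0909 and 0.0714 in Shox2-rich neurons and 0.0641 and 0.0667 in Rxfp1-rich neurons. Thus the neuronal Oprm1 counts came with almost no Ipcef1, and the immune ones came with several times as many Ipcef1 UMIs. The 2 genes have separate counts, but the use of strand and introns in counting was not given in the sources used here. Whether reads of Ipcef1 entered the Oprm1 counts of the immune cells was not tested.

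**Figure D4:**
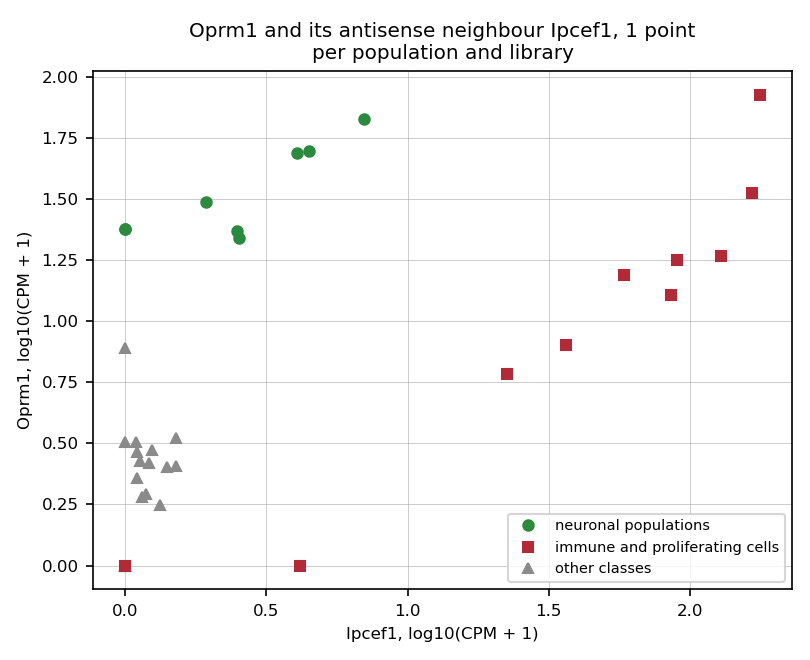
Oprm1 against Ipcef1, both as log10(CPM + 1), 1 point per population and library, with neuronal populations, immune and proliferating cells and all others in separate colours. Neurons lie high in Oprm1 and low in Ipcef1, at 6.0 CPM of Ipcef1 or less in Shox2-rich and Rxfp1-rich neurons, and T cells lie high in both.

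Oprl1, the nociceptin receptor (chr2:181715016-181720985, plus strand), was higher in the neuronal populations, by less than Oprd1 and Oprm1 in the neurons' log2 fold changes. The low-UMI droplets had 16.0 and 18.2 CPM, the other neuron-like cells 14.2 and 12.2 CPM, Rxfp1-rich neurons 11.6 and 9.67 CPM, and blood endothelial cells 1.23 and 1.80 CPM. Shox2-rich neurons had 19.5 CPM in library 1 and 3.48 CPM in library 2, from 13 and 3 UMIs, and so overlapped with all of these neuronal groups. Every named population outside the neuronal ones was at or below 4.63 CPM. Neurons had 15.7 and 10.9 CPM of the testing UMIs, against 2 and 2.31 CPM in non-neuronal cells, a log2 fold change of 2.41 ± 0.402 (SE) with an adjusted p of 4.05e-05 by edgeR. The droplets exceeded non-neuronal cells by 2.99 ± 0.46 (SE, log2), with an adjusted p of 6.05e-07 by edgeR. Without the droplet subclusters led by markers of other cells, the log2 fold change against non-neuronal cells was 2.74 for Oprm1 and 2.52 for Oprl1, with adjusted p of 3.71e-05 and 0.00495 by edgeR. Droplets against neurons gave 0.39 ± 0.436 (SE, log2) with an adjusted p of 0.426 by edgeR, which does not show that they are alike. Fibroblasts gave 0.23 ± 0.316 (SE, log2) with an adjusted p of 0.541 by edgeR, and 0 of 9 other classes passed.

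Oprk1, the kappa receptor and the receptor of dynorphins (chr1:5588466-5606131, plus strand), had 17 UMIs in all. Rxfp1-rich neurons, other neuron-like cells, low-UMI droplets and fibroblasts held 3 each. It did not pass the filter on low counts in the main fits. Without the filter the adjusted p by edgeR was 0.592 between neurons and non-neuronal cells and 0.275 between droplets and non-neuronal cells.

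The genes that make, break down and respond to opioid peptides were followed as lists. Of 8 processing genes, 5 were higher and 3 lower in neurons than in non-neuronal cells, where 28.3% of all genes were higher and 37.9% lower. The median log2 fold change was 1.69, against -0.30 over all genes tested. Pcsk2, prohormone convertase 2, had 137 and 112 CPM in neurons, against 3.92 and 4.31 CPM in non-neuronal cells (log2 fold change 4.71 ± 0.175, SE). Pcsk1, prohormone convertase 1, had 130 and 120 CPM in neurons, against 9.76 and 9.72 CPM in non-neuronal cells (3.46 ± 0.141, SE). Pam, the peptide-amidating enzyme, had 959 and 936 CPM in neurons and 207 and 209 CPM in non-neuronal cells. These enzymes of the regulated secretory route rose in the neurons, where Penk stood at the free-RNA level or under it. Cathepsin L, Ctsl, was lower in neurons with 76.6 and 40.8 CPM, against 426 and 402 CPM in non-neuronal cells. Cpe, the carboxypeptidase that trims peptide ends, was lower at 112 and 122 CPM in neurons and 245 and 236 CPM in non-neuronal cells, and Cpd also fell.

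In fibroblasts, where Penk was highest, 3 of 8 processing genes were higher, 1 lower and 4 did not pass, with a median of 0.15 where all genes had -0.02. Of all genes 32.3% were higher and 33.8% lower in that comparison. Ctsl had 864 and 792 CPM in fibroblasts, against 296 and 276 CPM in the other non-neuronal cells (log2 fold change 1.79). Cpe had 306 and 316 CPM in fibroblasts, against 227 and 210 CPM (0.77), and Pam had a log2 fold change of 0.44. The convertases did not pass, with log2 fold changes of 0.10 ± 0.133 (SE) for Pcsk1 and 0.19 ± 0.201 (SE) for Pcsk2. Scg5, the chaperone of Pcsk2, was lower by a log2 fold change of -0.19, with an adjusted p of 0.0349 by edgeR.

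Of 8 peptidases that break down enkephalins, 4 were higher in fibroblasts, 1 was lower and 3 did not pass (median 0.20), where 32.3% of all genes were higher and 33.8% lower. Ace had 92.4 and 96.3 CPM in fibroblasts, against 7.2 and 7.66 CPM in the other non-neuronal cells, a log2 fold change of 3.92 ± 0.0706 (SE). Mme, or neprilysin, had 21.6 and 24.4 CPM in fibroblasts, against 3.23 and 2.55 CPM (3.25). Anpep, aminopeptidase N, had 21.9 and 20.5 CPM in fibroblasts, against 7.98 and 7.69 CPM (1.69). All these are enzymes of the cell surface, while Ece1, the endothelin-converting enzyme, was lower at -0.29. In neurons 2 of 8 were higher, 4 lower and 2 did not pass, with a median of -1.29, where 28.3% of all genes were higher and 37.9% lower. Mme had 0.87 and 0 CPM in neurons, against 7.41 and 7.89 CPM in non-neuronal cells (-4.30), and Anpep and Ace gave -4.82 and -2.73. Mme and Anpep passed the filter on low counts only through the non-neuronal cells, here and against the droplets, which favours a lower call. The aminopeptidases Npepps and Lnpep were higher in neurons by 0.76 and 0.54 on the log2 scale.

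**Figure D5:**
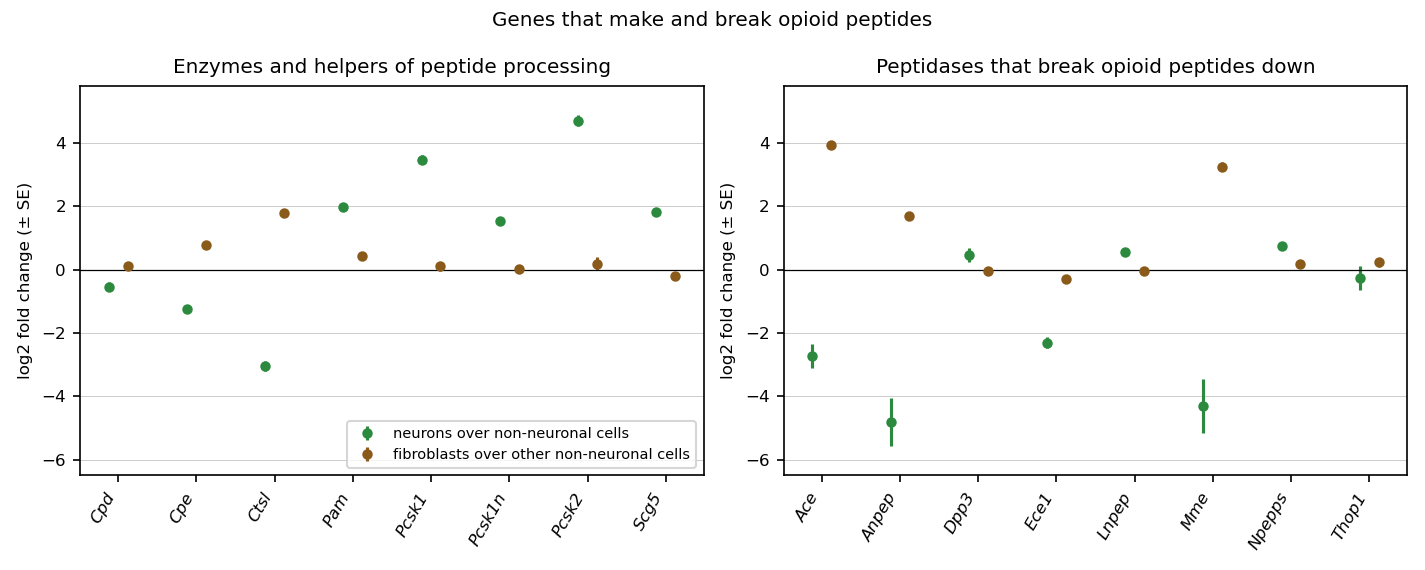
Log2 fold changes with standard errors of the peptide-processing and peptide-breakdown genes, for neurons against non-neuronal cells and for fibroblasts against other non-neuronal cells. Pcsk2 and Pcsk1 lie at 4.71 and 3.46 in neurons, and Ace and Mme at 3.92 and 3.25 in fibroblasts.

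Of 18 genes tested of the 20 that couple opioid receptors to channels or desensitise them, 9 were higher, 6 lower and 3 did not pass in neurons, with a median of 0.34, where 28.3% of all genes were higher and 37.9% lower. Kcnj3, a G-protein-gated potassium channel, had 173 and 149 CPM in neurons and 1.57 and 1.75 CPM in non-neuronal cells (log2 fold change 6.38). Cacna1b, the N-type calcium channel, had 459 and 435 CPM in neurons and 7.16 and 7.32 CPM in non-neuronal cells (5.74). Cacna1a, the P/Q-type channel, had 508 and 602 CPM in neurons and 25.3 and 24.4 CPM in non-neuronal cells (4.27). These 3 channels were higher, while Gnai2, an inhibitory G-protein subunit, was lower at -2.70 and the arrestins Arrb2 and Arrb1 at -1.64 and -1.49. In fibroblasts the same list gave 6 higher, 6 lower and 6 not passed (median -0.11), where 32.3% of all genes were higher and 33.8% lower. Cacna1a, Grk5 and Gnaz were higher there by 1.45, 0.83 and 0.56 on the log2 scale, and Arrb2, Grk3 and Rgs4 were lower at -1.72, -1.37 and -1.15.

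Other receptors of these peptides formed a list of 7 genes. In neurons 3 of 7 were tested, of which 0 were higher and 2 lower, with a median of -1.75. Of all genes 28.3% were higher and 37.9% lower in that comparison. Ackr3, a scavenger receptor that takes up opioid peptides, had 0.87 and 1.81 CPM in neurons, against 24.4 and 18.1 CPM in non-neuronal cells (-4.21), and Ogfr, the opioid growth factor receptor, gave -1.75. In fibroblasts Ackr3 was higher, with 30 and 27.1 CPM in fibroblasts, against 22.7 and 15.2 CPM in the other non-neuronal cells, and Ogfr did not pass. The melanocortin receptors Mc1r, Mc2r and Mc5r passed the filter on low counts only through the fibroblasts, so their calls are not counted. Mc5r had 0.988 and 0.821 CPM in fibroblasts, against 0.0969 and 0 CPM in the other non-neuronal cells. Mc2r had 0.658 and 0.616 CPM in fibroblasts, against 0.0969 and 0.0663 CPM.

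Between Shox2-rich and Rxfp1-rich neurons, 0 of 8 processing genes were higher, 4 were lower and 4 did not pass (median -0.57, against 0.00 over all genes), where 5.26% of all genes were higher and 7.08% lower. Pcsk2 had 0 and 16.2 CPM in Shox2-rich neurons, against 194 and 174 CPM in Rxfp1-rich neurons (-4.37 ± 0.381, SE, adjusted p 4.38e-28 by edgeR), and passed the filter on low counts through the Rxfp1-rich neurons alone. Pam had 416 and 304 CPM in Shox2-rich neurons and 1180 and 1340 CPM in Rxfp1-rich neurons (-1.89 ± 0.193, SE). Pcsk1 had 59.9 and 88.2 CPM in Shox2-rich neurons and 158 and 140 CPM in Rxfp1-rich neurons (-1.06). The 2 convertases and the amidating enzyme were thus lower in the population that held no Oprd1 UMI. Of 4 breakdown genes tested, Lnpep was lower at -0.65 and 3 did not pass (median 0.05). Of 14 coupling genes tested, Rgs4, which shortens G-protein signals, was higher at 1.10 ± 0.261 (SE) and Kcnj3 was lower at -2.42, with 41.9 and 44.1 CPM in Shox2-rich neurons and 227 and 216 CPM in Rxfp1-rich neurons. The other 12 did not pass, and none of the other receptors was tested.

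In the low-UMI droplets, against non-neuronal cells, 5 of 8 processing genes were higher, 2 lower and 1 did not pass (median 1.88, against -0.34 over all genes), where 22.8% of all genes were higher and 29.5% lower. Pcsk1n, the convertase inhibitor proSAAS, had 2670 and 2730 CPM in the droplets and 233 and 232 CPM in non-neuronal cells (3.51), and Pcsk2 and Pcsk1 gave 3.31 and 3.17. Of the coupling genes 12 of 18 were higher, 5 lower and 1 did not pass (median 1.28), led by Kcnj3, Cacna1b and Kcnj9 at 3.83, 3.71 and 3.06 and, downward, by Grk5, Arrb2 and Arrb1 at -2.07, -1.44 and -1.39. Breakdown genes gave 3 higher, 4 lower and 1 not passed (median -0.33), with Thop1, Dpp3 and Lnpep at 1.63, 0.97 and 0.26 and Mme, Anpep and Ece1 at -3.52, -3.05 and -1.15. Ackr3 was lower at -3.42.

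Set against the neurons, the droplets gave 4 higher, 5 lower and 8 not passed of 17 coupling genes (median 0.00, against -0.07 over all genes), where 36% of all genes were higher and 37.4% lower. Kcnj3, Cacna1a and Cacna1b were lower at -2.74, -2.74 and -2.23, and Gnai2, Rgs4 and Rgs19 were higher at 1.73, 1.61 and 1.53. Of 8 processing genes 4 were higher, 3 lower and 1 did not pass (median 0.29). Ctsl, Pcsk1n and Cpe were higher in the droplets at 2.50, 1.77 and 1.17, and Pcsk2, Pam and Pcsk1 were lower at -1.59, -1.21 and -0.49. Of 5 breakdown genes Thop1 and Ece1 were higher at 1.67 and 0.95 (Thop1, like Rgs19, passed the filter only through the droplets), Npepps and Lnpep were lower at -0.80 and -0.48, and 1 did not pass (median 0.30).

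Genes with the most similar pattern were sought over 16 named populations among 14924 genes, as Pearson's r of log2(mean CPM + 1), a description over populations that share libraries. Penk was most like Vit (0.944), Gpc3 (0.941) and Egfr (0.934), and Oprl1 most like Golga7b (0.957), Atp2b3 (0.955) and Nyap1 (0.949). Oprm1 was most like Emb (0.94), Osbpl3 (0.922) and Slc37a1 (0.909). That pattern takes in the immune cells, with only 29 Oprm1 UMIs in T cells. Pomc was most like Tsg101 (0.929), Ubqln2 (0.924) and Psmd12 (0.856). With 286 testing UMIs and a level close to uniform outside the low-UMI droplets, the Pomc likeness rests on few counts. Oprd1, Oprk1, Pdyn and Pnoc had too few UMIs for the search.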

How the data were processed

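The authors deposited whole-number UMI counts per gene and barcode for each library, made from a 10x Genomics 3' v3.1 preparation per the labels' protocols. The tissue was digested and triturated into single cells. Per the submitters' processing notes, the tools and builds named were Cell Ranger 6.1.2 and mm10. The use of strand and introns in counting was not given in the sources used here. The deposited barcodes held at least 1501 UMIs. Here, barcodes with 500 genes, 1000 UMIs and under 20% mitochondrial counts were kept, and 561 and 625 doublets marked by Scrublet (scanpy 1.11.5) were removed; 1 barcode failed the filters.

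Each UMI was put at random, with a probability of 0.5, into a set for clustering or a set for testing. Clustering used 3000 variable genes, 30 components, 15 neighbours and Leiden at resolution 1 (leidenalg 0.10.2), without the members, and gave 33 clusters. Clusters were named from 27 marker sets and stayed unnamed where markers of another type led. A further clustering of the neuron-like cells at resolution 0.8 left out Shox2 and Rxfp1, and a subcluster was called rich in the one of the 2 genes whose level, as a fraction of its highest subcluster, exceeded the other's by 0.25 in both libraries. Subclusters with a median under 5000 UMIs are the low-UMI droplets.

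CPM was computed from the deposited counts, with exact 95% Poisson intervals; shares have exact (Clopper-Pearson) intervals, and all cover counting error only. A floor is 3 counts. Each comparison used 4 summed testing counts (2 populations, 2 libraries) in edgeR 4.0.16 (TMM, filterByExpr, quasi-likelihood, library as block), with an adjusted p threshold of 0.05. Sums with the same library number come from the same cell suspension, which pairs them. Only 1 residual degree of freedom remained, so the tests lean on the spread shared over genes. Classes needed 50 cells in each library. The steps were checked on simulated counts. DESeq2 1.42.0 was an alternative, with others on size factors, filter, UMIs used, block, doublets, random seed and a left-out library. Leaving out shared barcodes, or droplet subclusters led by markers of other cells, was chosen after seeing the data.

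The members and gene lists were chosen with earlier results of these data known. Of each list, up to 3 called genes a direction with the largest log2 fold change and the same direction in both libraries are named; Pcsk1 and Pcsk2 in fibroblasts were added after their values were seen. For likeness, members needed 200 testing UMIs and genes 10 CPM in some population. Sequences come from the GENCODE M21 transcripts on GRCm38.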

Additional observations from a re-analysis of the deposited data

Results flagged for a closer look

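The values below come from populations outside the comparisons and stood above the blood endothelial level of the same library, with no overlap of the 95% counting intervals. No explanation was tested.

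Oprm1 was 83.3 and 32.5 CPM in T cells and 17.5 and 14.4 CPM in proliferating cells, against 1.97 and 1.67 CPM in blood endothelial cells. In T cells 11 and 8 cells held an Oprm1 UMI. All 8 T-cell markers had a UMI there and summed to 3850 and 3070 CPM, while neuron markers summed to 3220 and 2610 CPM, against 1700 and 1670 CPM in blood endothelial cells; their part in the Oprm1 level was not tested.

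The neuron-like subcluster N7 had the immune genes H2-Eb1 and Cd74 and the macrophage markers Lyz2 and C1qa among its leading genes. It held Oprm1 at 39.4 and 33.2 CPM, Oprl1 at 22.8 and 23.9 CPM and Oprd1 at 6.22 and 13.3 CPM. The neuron-like subcluster N5, with the fibroblast marker Dcn among its leading genes, held Oprm1 at 13.5 and 47.0 CPM, Oprl1 at 8.68 and 8.89 CPM and Oprd1 at 6.75 and 7.62 CPM. Both thus held 3 receptors, as the Rxfp1-rich neurons did.

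Penk was 59.7 CPM in N5 of library 2, from 47 UMIs in 8 cells, and 5.78 CPM there in library 1. It was 22.4 CPM in the unnamed cluster 24 of library 2, from 12 UMIs in 1 cell, and 3.87 CPM there in library 1. Oprl1 was 10.0 CPM in the neuron-like subcluster N8 of library 1, led by Ddr2 and Syt10, and 1.7 CPM there in library 2. It was 18.7 and 17.1 CPM in the unnamed cluster 28, led by Ptger3, Sv2a, Disp2, Slc6a2 and Shox2, from 7 UMIs in each library.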

How the results depend on the processing

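Of 257 values under tested alternatives, 233 kept their direction and side of the threshold, 19 lost the call, 1 gained it and 4 turned round. None of the reversed values had passed: Pomc in neurons against non-neuronal cells became 0.26 with doublets kept, and Oprl1 in fibroblasts became -0.04 with all UMIs, -0.31 with doublets kept and -0.07 with another random seed. Penk in droplets against non-neuronal cells ranged from -5.91, without subclusters led by markers of other cells, to -2.85, with another random seed. Penk in fibroblasts stayed between 5.15 and 6.03 and passed in 8 of 8 alternatives. In neurons against non-neuronal cells Oprd1 stayed between 4.2 and 4.59, Oprm1 between 3.32 and 3.74 and Oprl1 between 2.06 and 2.42, each past the threshold in 8 of 8.

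Counts of called members moved in 3 comparisons. Droplets against neurons, with 1 member called, gave 0 with DESeq2, 2 with no filter on low counts, 2 with all UMIs, 2 with doublets kept and 3 in one fit over all named populations. Shox2-rich against Rxfp1-rich neurons, with 1 called, gave 0 with DESeq2, with no replicate block, with doublets kept, with another random seed and without the barcodes shared by the libraries. An unmoved count between the neuron populations need not mean the same gene. Oprd1 was called with all UMIs, with no filter and in one fit over all named populations. The Oprm1 call held in 1 of 9 alternatives. Fibroblasts, with 3 called, gave 1 with DESeq2. The replicate block moved no other count of called members. Oprl1 in droplets against neurons passed only with another random seed, at 1.04 with an adjusted p of 0.017 by edgeR.

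Over all genes DESeq2 called 4945 where edgeR called 7564 for droplets against neurons, 255 against 966 for Shox2-rich against Rxfp1-rich neurons and 6823 against 11486 for fibroblasts. For the other classes it called 6814 against 10604 (blood endothelial cells), 7034 against 11101 (macrophages), 1149 against 2064 (mast cells), 4974 against 10080 (non-myelinating Schwann cells), 4783 against 8166 (pericytes or smooth muscle cells), 4756 against 8928 (perineurial or epineurial cells) and 6748 against 12370 (satellite glia). Without the shared barcodes edgeR called 601 genes between the neuron populations. The causes were not tested.

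With 1 library left out no residual degrees of freedom remain, so counts of calls have no such value, and the log2 ratio of CPM + 1 in the other library is a value with no test: 5.17 to 5.33 for Penk in fibroblasts, 2.56 to 3.28 for Oprd1, 2.89 to 3.66 for Oprm1 and 1.85 to 2.48 for Oprl1 in neurons, and 0.67 to 1.71 for Oprm1 between the neuron populations. Depth limits Pdyn, Pnoc and Oprk1, and Oprd1 between the neuron populations.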
